A study of Mus musculus with 2 samples.

Results

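Bcl6, Blimp-1 and the octamer coactivator OCA-B, with their Oct partners and the factors Ascl2, Tox and Tox2, were examined in CD4 T cells activated with antigen-presenting cells (APC) that carried an OX40L transgene or were wild type. The members were taken by symbol, from probe sets that the platform annotation pairs with 1 gene. Of the 8 genes Bcl6, Prdm1, Ascl2, Tox, Tox2, Pou2af1, Pou2f1 and Pou2f2, 6 had a value among 17097 genes in all. Expression of Tox and Pou2f1 is not analysed here. The T cells were naive, Foxp3-negative CD4 cells sorted from Foxp3-eGFP reporter mice on the C57/Bl6 background, 6 weeks of age. They received soluble anti-CD3 antibody for 48 hours, together with splenocytes depleted of CD3-positive cells and treated with mitomycin C at 50 ug/ml. In the OX40L-Tg APC condition these splenocytes came from OX40L-Tg mice, and in the Wt APC condition from wild type mice. Which promoter drives the transgene is not given in the labels. Living CD4 T cells were sorted from the cultures again, and RNA of each condition went on 1 Affymetrix array of the type HT MG-430 PM, so no difference can be tested against replicates.

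Bcl6 and Blimp-1, the product of Prdm1, are repressors that oppose each other: Bcl6 directs CD4 T cells to the follicular helper (Tfh) fate and Blimp-1 to other effector fates. Ascl2 and Tox2 are factors of the Tfh programme, and TOX is also known from exhausted T cells. OCA-B, the product of Pou2af1, binds no DNA by itself but docks on the POU factors Oct1 (Pou2f1) and Oct2 (Pou2f2) at octamer elements. It is best known in B cells and is also induced in activated T cells.

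Pou2af1 was the only member past 2-fold upward, that is, with a reading at least 2 times higher with OX40L-Tg APC than with Wt APC, and 0 members passed 2-fold downward. Prdm1 was above background on both arrays and nearly equal. Bcl6, Pou2f2, Ascl2 and Tox2 stayed below the background level on both arrays. Of the 4 members above the floor, 1 passed 2-fold upward. Among the 10541 genes above the floor, 1.56% passed it upward and 1.17% downward. The members were chosen with earlier results of these data known, so setting them beside these shares is no test. At 1.5-fold the shares of genes were 3.85% upward and 3.36% downward. The floor is the median of all probe sets, about 14.7 units of linear intensity, and a gene passed it by reaching it on at least 1 array. The background level is the 95th percentile of 47 genes typical of other organs. It was 37.3 units on the OX40L-Tg APC array and 30.1 units on the Wt APC array.

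The promoter of Pou2af1 is shown because this gene carried the largest difference of the 6 members. RefSeq places it at chr9:51213440-51213739 on the + strand of GRCm38.p6, a window of 250 bases before to 50 bases after the annotated start site. The capitals mark the core TGACG, which factors of the CREB and ATF family bind, at position -61 from the start.
Pou2af1 promoter: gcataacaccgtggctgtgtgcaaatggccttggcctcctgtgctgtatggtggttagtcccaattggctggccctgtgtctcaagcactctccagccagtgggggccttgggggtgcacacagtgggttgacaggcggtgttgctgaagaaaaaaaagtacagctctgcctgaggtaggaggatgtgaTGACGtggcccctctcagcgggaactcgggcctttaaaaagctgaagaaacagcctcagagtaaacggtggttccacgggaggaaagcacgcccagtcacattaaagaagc
On either strand TGACG was found in 20.8% of 32851 promoter windows of this length, and in 35.6% of the 8580 genes above the floor that had a window. A gene was counted when any of its windows matched, so the share of genes cannot be compared directly with the share of windows. An exact octamer ATGCAAAT, the element of the Oct factors, was found on neither strand of this window. The window does hold gtgcaaat, which differs from the octamer in its first letter, and such near matches were not counted.

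Of the 2 Bcl6 windows, both on the - strand, the downstream one at chr16:23981234-23981533 is shown. It is given for a motif that Bcl6 itself and the STAT factors recognise. The capitals mark 3 matches to TTCNNNGAA, which reads alike on both strands, at positions -168, -122 and -88.
Bcl6 promoter: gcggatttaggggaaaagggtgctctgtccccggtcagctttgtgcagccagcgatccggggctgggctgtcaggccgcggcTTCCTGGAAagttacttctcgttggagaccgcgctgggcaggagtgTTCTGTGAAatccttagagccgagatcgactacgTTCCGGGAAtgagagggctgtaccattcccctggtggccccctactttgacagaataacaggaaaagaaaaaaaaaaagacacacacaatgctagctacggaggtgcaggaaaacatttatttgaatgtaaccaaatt
At least 1 match stood in 8.3% of all windows and at least 3 in 0.0335%, which is 11 of 32851. The other Bcl6 window, upstream at chr16:23988803-23989102, held 1 match. Of the 3 Pou2f1 windows, 1 held 1 match, and the windows of Prdm1, Ascl2, Tox2, Pou2f2 and Pou2af1 held 0. The window shown is the Bcl6 window with more matches, and the cut of 3 is its own count, so the share is no test. A match describes the letters of a window and does not show that a factor is bound.

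Pou2af1 read 388 units with OX40L-Tg APC, against 73.9 units with Wt APC. Both readings lay above background, at 1038% and 246% of the level of their own arrays. The difference was 2.39 on the log2 scale, or 5.25-fold higher. It ranked 28th from the top among the genes above the floor and exceeded 99.7% of them. The value rests on 1 probe set, so no other probe set of the gene could be set beside it. Across 3240 genes with at least 2 probe sets above background, the differences of probe sets of 1 gene varied with an SD of 0.15, which measures probe scatter and not the spread between cultures.

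Pou2f2, which encodes Oct2, the lymphoid partner of OCA-B, read 21.2 units with OX40L-Tg APC and 28.0 units with Wt APC in the probe set with the higher mean. Its other probe set read 17.9 units with OX40L-Tg APC and 21.8 units with Wt APC. All 4 readings were below background, so no fold is given. The Wt APC reading of the first probe set stood close to it, at 93.1% of the background level of its array. The log2 differences were -0.40 and -0.28.

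Prdm1 read 191 units with OX40L-Tg APC and 170 units with Wt APC, each more than 5 times the background of its array. The difference of 0.17 corresponds to a 1.12-fold higher reading, and 76.3% of genes above the floor had a lower difference. The Blimp-1 transcript was thus present in both cultures at similar readings, in 1 probe set.

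Bcl6 read 15.3 units with OX40L-Tg APC and 28.8 units with Wt APC in its probe set with the higher mean. The second probe set read 16.8 units with OX40L-Tg APC and 21.6 units with Wt APC. The OX40L-Tg APC reading was the lower in both probe sets, by -0.92 and -0.36 on the log2 scale, but all 4 readings were below background. In the first probe set the OX40L-Tg APC reading stood at 40.9% of the background level of its array and the Wt APC reading at 95.9%. Among the 1998 genes that were likewise above the floor and below background on both arrays, 2.65% read at least 1.5-fold lower, a size that Bcl6 passed in 1 of its probe sets. An intensity in this range shows neither presence nor absence of a transcript.

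Ascl2, a helix-loop-helix factor that induces Cxcr5 in Tfh cells, had 3 probe sets. Their readings lay between 6.66 and 9.32 units with OX40L-Tg APC and between 7.40 and 9.05 units with Wt APC, all below the floor. Tox2, an HMG box factor, read 7.38 units with OX40L-Tg APC and 8.29 units with Wt APC, also below the floor. Neither gene could be compared at these intensities.

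**Figure D1:**
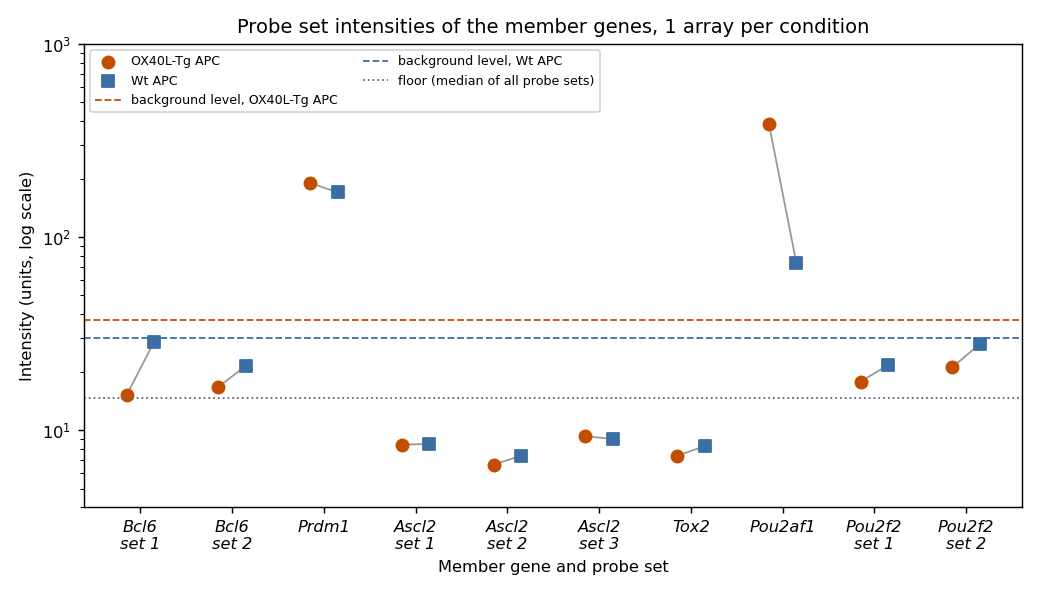
Intensity (log scale, units) of every probe set of the 6 measured members, with OX40L-Tg APC as circles and Wt APC as squares, 1 array each; dashed lines are the background levels of the arrays and the dotted line is the floor. Pou2af1 and Prdm1 lie above background on both arrays, Pou2af1 at 388 units with OX40L-Tg APC against 73.9 units with Wt APC, and all other probe sets lie below it.

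**Figure D2:**
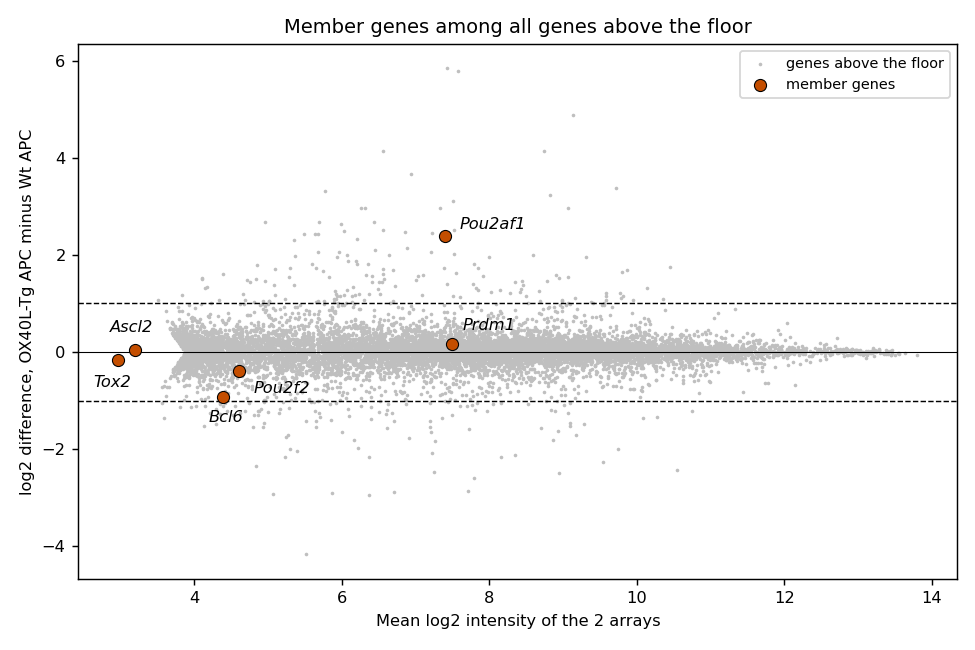
Mean log2 intensity of the arrays (x axis) and log2 difference, OX40L-Tg APC minus Wt APC (y axis), of all genes above the floor in grey and of the 6 members in colour; dashed lines mark 2-fold. Pou2af1 stands above the dashed line at 2.39, while Bcl6, at -0.92, lies inside it and at low intensity.

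The genes whose pair of log2 readings lay nearest to that of Pou2af1 were Frmd4b, Tex15 and Fcgbp, at distances of 0.18, 0.25 and 0.31 in the plane of the 2 arrays. Frmd4b, a FERM domain protein, read 437 units with OX40L-Tg APC and 76.8 units with Wt APC. Tex15, known from male germ cells, read 350 units with OX40L-Tg APC and 64.0 units with Wt APC. Fcgbp, a mucin-like protein, read 371 units with OX40L-Tg APC and 91.4 units with Wt APC. With 1 array a condition, likeness here means only a similar pair of readings. Of the 6 protein-coding genes next to Pou2af1 on chromosome 9, the 4 with a value (Hoatz, Btg4, 1810046K07Rik and Arhgap20) were all below the floor on both arrays and could not be compared.

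B cells also express Pou2af1, and B cell transcripts were present in the sorted cells. Of 18 B cell markers with a value, 12 were above background with OX40L-Tg APC and 13 with Wt APC. Their summed level was 2235 units with OX40L-Tg APC and 1638 units with Wt APC. The 13 markers above background on at least 1 array differed by -0.53 to 1.00, with a median of 0.10, and 0 of them reached the difference of Pou2af1. The signalling chains of the B cell receptor read 135 units with OX40L-Tg APC and 116 units with Wt APC for Cd79a, and 313 units with OX40L-Tg APC and 166 units with Wt APC for Cd79b. Ms4a1, which encodes CD20, read 291 units with OX40L-Tg APC and 244 units with Wt APC. Fcer2a, which encodes CD23, differed most among the list, at 520 units with OX40L-Tg APC and 259 units with Wt APC. Of the 15 markers above the floor, 11 were higher and 4 lower with OX40L-Tg APC. Spib was among the lower ones, at 51.0 units with OX40L-Tg APC and 65.1 units with Wt APC. Pax5 and the plasma cell gene Jchain were below the floor on both arrays. Fewer cells of a type and less RNA per cell cannot be told apart in such samples, and the part of B cells in the Pou2af1 reading was not tested.

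MHC class II genes, typical of APC, summed to 4025 units with OX40L-Tg APC and 3025 units with Wt APC, with a median difference of 0.41 over 9 genes above the floor. The 11 T cell markers with a value were all above background on both arrays, with a summed level of 19987 units with OX40L-Tg APC and 23210 units with Wt APC and a median difference of -0.23. Of 15 dendritic cell and macrophage markers, 2 were above background on either array. Although the labels' protocol for RNA extraction names adipose tissue, 0 of 6 adipocyte markers with a value reached background. Foxp3, which defines regulatory T cells, was below the floor on both arrays. Of the 4 CD8 T and NK cell markers above the floor, 2 were higher and 2 lower with OX40L-Tg APC. Their median difference was -0.04. Cd8b1 read 239 units with OX40L-Tg APC and 191 units with Wt APC. Klrd1 read 19.7 units with OX40L-Tg APC, below background, and 78.7 units with Wt APC. The alpha globin gene Hba-a1 read 207 units with OX40L-Tg APC and 1161 units with Wt APC. Of 7 plasma cell markers with a value, 2 were above background with OX40L-Tg APC and 3 with Wt APC.

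**Figure D3:**
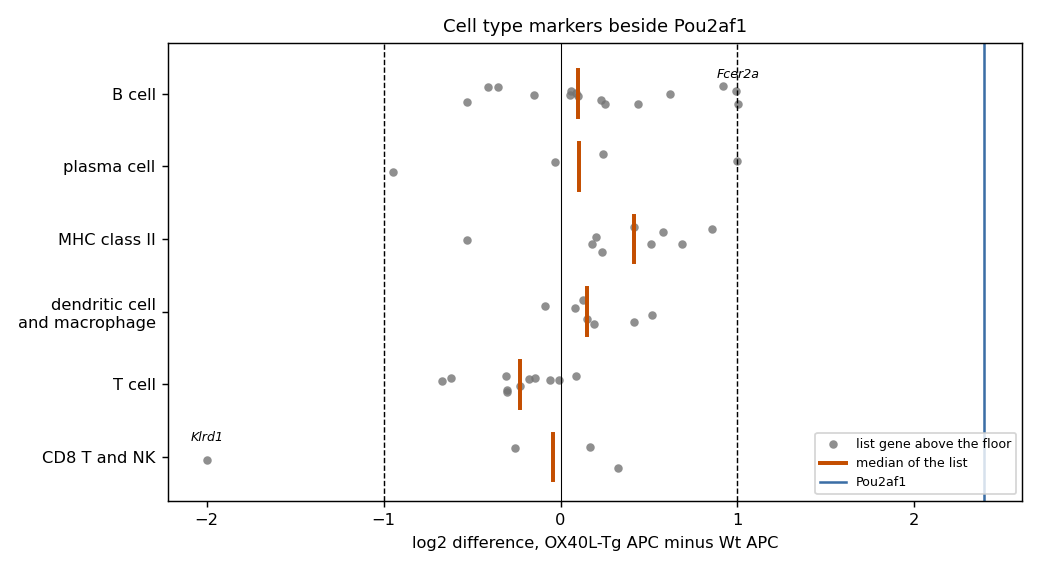
Log2 difference, OX40L-Tg APC minus Wt APC (x axis), of marker genes above the floor for 6 cell type lists; each point is a gene, the short bar is the median of the list, the vertical line on the right is Pou2af1 and dashed lines mark 2-fold. The B cell markers reach 1.00 at most, and Pou2af1 stands at 2.39. The part of B cells in the Pou2af1 reading was not tested.

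Genes described as OCA-B targets in T cells, listed with the histone demethylase Kdm3a that OCA-B is known to recruit, had the largest median difference of the 10 lists drawn up around the members. Of 12 above the floor, 6 passed 2-fold upward and 1 downward, beside 1.56% and 1.17% of all genes above the floor. The median difference was 0.94, beside 0.02 for all genes above the floor. The gene downward was Il17a, at 14.2 units with OX40L-Tg APC, below background, and 30.8 units with Wt APC, and with a pseudocount of 16 or the floor at the 75th percentile that count was 0. The list holds cytokine genes that were known to differ between these arrays when it was drawn up. Its counts, its median and its place among the lists are therefore no test. Il21, the helper cytokine of Tfh cells, read 1413 units with OX40L-Tg APC and 25.6 units with Wt APC, the second below background. That is at least 47.0-fold higher when the Wt APC reading is replaced by the background level of its array, and the other probe set of Il21 read 123 units with OX40L-Tg APC and 11.7 units with Wt APC. Il4, the type 2 cytokine, read 2711 units with OX40L-Tg APC and 262 units with Wt APC. Csf2, which encodes GM-CSF, read 1503 units with OX40L-Tg APC and 192 units with Wt APC. Il3 and Il2, a growth factor of blood cells and one of T cells, were 3.09-fold and 2.25-fold higher. Ahr, a ligand-activated factor, was at least 7.38-fold higher. Its other probe set differed by 0.00, but it read 22.7 units on both arrays, below background. Ifng, in contrast, read 198 units with OX40L-Tg APC and 351 units with Wt APC, and Kdm3a 851 units with OX40L-Tg APC and 856 units with Wt APC. The median of this list lay between 0.70 and 1.17 under the 8 alternative settings.

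The octamer was looked for in the promoter windows of all genes past 2-fold, since it is the element on which OCA-B acts. It stood in 4 of the 133 genes past 2-fold upward that had a window (3.01%), in 4 of the 97 downward (4.12%), and in 1.57% of 8580 genes above the floor. These shares rest on 4 genes each. The windows of Il21 and Il2 held no exact octamer. The 30 bases around each match in the genes that were higher are given first, with the octamer, or its reverse complement ATTTGCAT, in capitals, from GRCm38.p6.
Egr2, chr10:67537731-67537760, + strand: gccaagcccgtATGCAAATtggccatgtga
Ermn, chr2:58052964-58052993, - strand: attgcttgtttATGCAAATtgaaggcaaca
Gadd45g, chr13:51846561-51846590, + strand: cctgccgcctcATTTGCATcagaaagcggg
Iltifb, chr10:118295107-118295136, - strand: tcaacctttgtATTTGCATctaccataact
Egr2, a zinc finger factor induced by the T cell receptor, read 536 units with OX40L-Tg APC and 197 units with Wt APC. Ermn, a cytoskeletal protein of oligodendrocytes, read 399 units with OX40L-Tg APC and 22.5 units with Wt APC, the second below background. Gadd45g, a stress-induced growth arrest gene, read 527 units with OX40L-Tg APC and 222 units with Wt APC. Iltifb, a close copy of the IL-22 gene whose signal may not be its own, read 155 units with OX40L-Tg APC and 27.5 units with Wt APC. The matches lay 87 to 188 bases before a start site, on either strand.

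The genes past 2-fold downward held the following octamer matches.
Capn3, chr2:120476844-120476873, + strand: ggaccgtgttcATTTGCATcaagctgctga
Ccr6, chr17:8235964-8235993, + strand: aaatgaaaaaaATTTGCATgtcacagtgaa
Ms4a4c, chr19:11407480-11407509, + strand: ataaaagtgttATTTGCATttcaaaatatt
Sh3gl3, chr7:82174747-82174776, + strand: ctagaagcttcATTTGCATgctgccgaggc
Ms4a4c, of the Ms4a family of membrane proteins, had 249 units with OX40L-Tg APC and 877 units with Wt APC. Ccr6, a chemokine receptor, read 20.9 units with OX40L-Tg APC, below background, and 48.8 units with Wt APC. Sh3gl3, an endophilin, read 45.1 units with OX40L-Tg APC and 102 units with Wt APC, and Capn3, a muscle calpain, was below background on both arrays. The octamer was thus present in genes of both directions.

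Genes of the Tfh surface and signalling programme did not differ in 1 direction. Of 15 above the floor, 2 passed 2-fold upward and 1 downward, beside 1.56% and 1.17% of all genes above the floor. The same shares stand beside the counts of the lists below. All lists were chosen with earlier results of these data known, so this is no test. The median of the Tfh list was -0.17. The 2 genes upward were Il21 and Cd200, an inhibitory ligand that read 1332 units with OX40L-Tg APC and 572 units with Wt APC. Slamf6, a SLAM family receptor, read 83.4 units with OX40L-Tg APC and 262 units with Wt APC. Cxcr5, the chemokine receptor that brings T cells to the follicle, read 188 units with OX40L-Tg APC and 216 units with Wt APC. Icos, Sh2d1a and Pdcd1, which encode a costimulator, the adaptor SAP and PD-1, differed by -0.33, -0.17 and -0.53. Il6st, the shared gp130 chain, differed by -0.89 and Btla, an inhibitory receptor, by 0.70.

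Factors that act with or before Bcl6 went both ways, with 2 of 15 past 2-fold upward, 2 downward and a median of -0.07. Batf, an AP-1 factor needed for Bcl6 expression, read 1664 units with OX40L-Tg APC and 519 units with Wt APC. Egr2 was the other gene past 2-fold upward. Klf2, a quiescence factor that restrains Tfh cells, read 65.0 units with OX40L-Tg APC and 358 units with Wt APC. Foxp1, a negative regulator of Tfh cells, read 321 units with OX40L-Tg APC and 929 units with Wt APC, and its 7 probe sets lay between -1.61 and -1.04. Id3 differed by -0.91, Irf4 by 0.37, Lef1 by 0.22 and Stat3 by 0.05. Maf was below the floor.

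Corepressors and partners of Bcl6 were close on the arrays, with 0 of 14 at least 1.5-fold different in either direction and a median of -0.13. The largest differences were those of Zbtb32, a zinc finger repressor, at -0.49 and Mta3, a subunit of a deacetylase complex, at -0.27. Bcorl1 and Hdac7 followed at 0.26 and -0.22. Genes that Bcl6 is known to repress had a median of 0.02 over 12 above the floor. Of these, Gata3, the Th2 factor, read 1145 units with OX40L-Tg APC and 512 units with Wt APC, the only one past 2-fold upward. Klf2 and Ccr6 passed it downward, Ccr6 with an OX40L-Tg APC reading below background, and this count of 2 became 1 with a pseudocount of 16 and with the floor at the 75th percentile. Il2ra, the high-affinity IL-2 receptor chain, differed by 0.89. Id2 differed by 0.42 and Tbx21, which encodes T-bet, by -0.25.

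Effector genes linked to Blimp-1 included 2 of 13 past 2-fold upward and 0 downward. Gzma, which encodes granzyme A, read 3048 units with OX40L-Tg APC and 104 units with Wt APC. Il10, a cytokine that Blimp-1 promotes, read 154 units with OX40L-Tg APC and 43.7 units with Wt APC. Gzmb, which encodes granzyme B, read 5782 units with OX40L-Tg APC and 6382 units with Wt APC. The median was 0.31 over the genes above the floor and -0.14 over the 9 above background, so its direction depends on the weakest readings. Genes that Blimp-1 is known to repress had a median of -0.25, with Il2 the only one of 9 past 2-fold upward and Ccr6 the only one downward. The downward count became 0 with the pseudocount and with the higher floor. Il2 read 205 units with OX40L-Tg APC and 90.9 units with Wt APC.

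E proteins, which pair with Ascl2, and their Id inhibitors had a median of 0.25 over 8 genes and of -0.21 over the 5 above background. Tcf12 and Tcf3 differed by -0.41 and -0.21. Lyl1, a related helix-loop-helix factor, read 76.5 units with OX40L-Tg APC and 42.0 units with Wt APC. Id1 passed 2-fold with both readings below background. Of the other POU genes, 4 of 10 passed the floor, and Pou6f1 alone reached background, at 22.1 units with OX40L-Tg APC, below background, and 43.7 units with Wt APC.

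TOX family genes and genes linked to TOX in exhausted T cells were lower or close, with 2 of 10 past 2-fold downward, 0 upward and a median of -0.43. The median was -0.22 with no floor, and the downward count was 1 with the mean of all probe sets of a gene. T cell markers were lower by a median of -0.23 on the same arrays, and the part of this shift in the result was not tested. Eomes, a T-box factor, read 65.1 units with OX40L-Tg APC and 221 units with Wt APC. Nr4a3, a nuclear receptor induced by receptor signalling, read 782 units with OX40L-Tg APC and 1975 units with Wt APC, a difference of -1.34. Its other probe sets differed by -0.54 and -0.24, with all their readings below background. Nr4a1 and Lag3 differed by -0.58 and -0.42. Tox4, a broadly expressed relative of Tox, differed by 0.03.

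**Figure D4:**
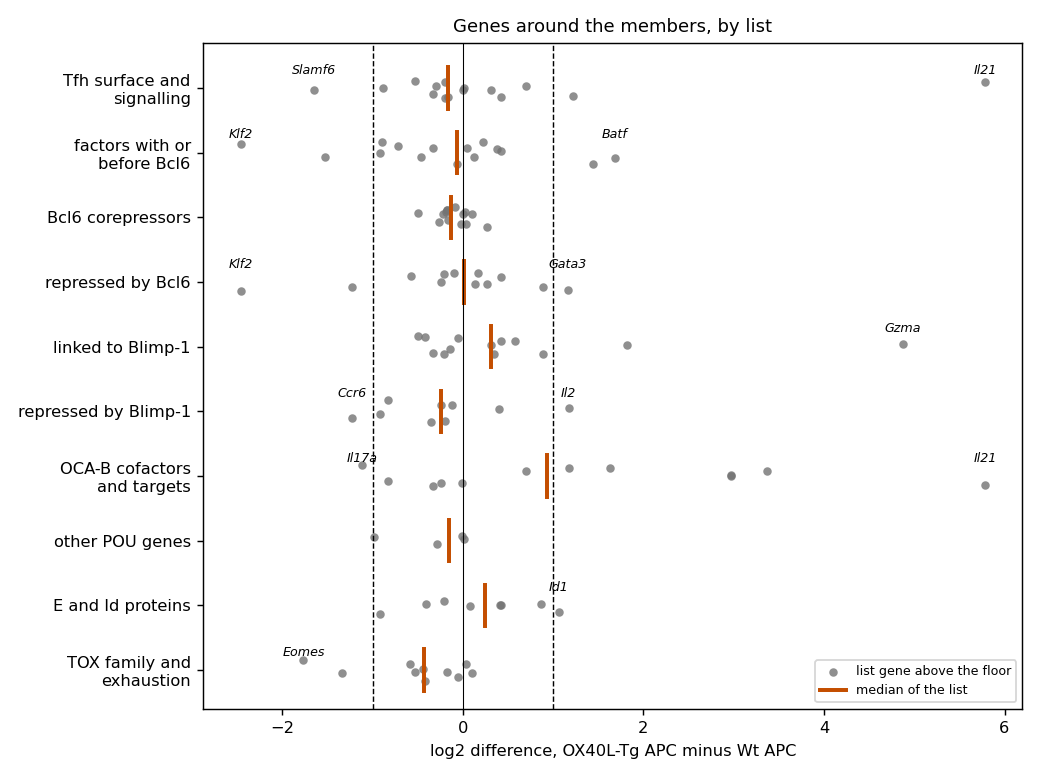
Log2 difference, OX40L-Tg APC minus Wt APC (x axis), of genes above the floor in 10 lists around the members; each point is a gene, the bar is the median of the list and dashed lines mark 2-fold. The OCA-B cofactors and targets have their median at 0.94, and the Tfh surface and signalling genes at -0.17. The OCA-B list holds cytokine genes that were known to differ between these arrays when it was drawn up. The point of Il21 on the right is drawn at its measured readings, of which the Wt APC one is below background.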

How the data were processed

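RNA of 1 sample per condition was hybridised to Affymetrix HT MG-430 PM arrays. The authors deposited linear intensities of probe sets, obtained with RMA per the submitters' processing notes; its version and the arrays normalized together are not given in the sources used here. RMA equalises arrays and can compress low intensities, so small readings may understate differences, which was not tested here. The table holds 45141 probe sets, of which 28898 were paired with 1 symbol, 551 with several and 15692 with none listed. Of the 28898, 28689 were found by Entrez number in RefSeq (GRCm38.p6), which changed 0 symbols. Log2 was taken, a gene took its probe set with the highest mean, and Wt APC was subtracted from OX40L-Tg APC. The arrays correlated with r = 0.993. The number of arrays limits the precision and allows no test, error or p-value. Of the 47 background genes, 3 exceeded the level on each array; Tg, thyroglobulin, read 4491 units with OX40L-Tg APC and 3302 units with Wt APC.

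Members and lists were chosen with earlier results of these data known. All members were described; of each list, the 4 genes above the floor with the largest difference and a fixed set of key genes could be named. Of 284 list genes, 45 had no value. Promoter windows and their build come from RefSeq. Calculations used Python 3.11.15, numpy 2.4.6, pandas 2.3.3, statsmodels 0.14.6 and matplotlib 3.10.9, and were tested on simulated arrays. Alternatives were another probe set rule, lowess, a pseudocount, other floors and centring.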

Additional observations from a re-analysis of the deposited data

How the results depend on the processing

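Under all 8 alternatives 1 member passed 2-fold upward and 0 downward. Pou2af1 ranged from 2.17 to 2.39, Prdm1 from 0.14 to 0.17, Pou2f2 from -0.42 to -0.24 and Bcl6 from -0.94 to -0.52. The median of the members was -0.12 and became 1.28 with the floor at the 75th percentile and, in an alternative chosen after seeing the data, with members above background only; both keep just Prdm1 and Pou2af1. Of 524 alternative values, 41 moved by more than the scatter between probe sets (or, for counts, by over 1.5 times), and 20 changed sign, all of them of a size under 1.5-fold in the main setting. The B cell list median lay between 0.08 and 0.53, the highest with the floor at the 75th percentile. No paired analysis was possible because each condition has 1 array. No replicate could be left out for the same reason. Readings below background limit what can be said of Bcl6, Pou2f2, Ascl2 and Tox2. No other percentile for the background level was tried.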
